A study of Mus musculus with 23 samples.

Results

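Endothelial cells line blood vessels, and the 8 genes described here encode receptors and junction proteins for which these cells are known: Tek, Tie1, Kdr, Flt1, Flt4, Cdh5, Pecam1 and Eng. They were chosen by gene symbol, and they are 8 of the 17973 genes, and 11 of the 25697 probes, that the arrays read. RNA was hybridized to 23 Illumina bead arrays. ESC-derived cells came from the R1 line and were taken at day 7 of differentiation from embryoid bodies in Static flasks (3 arrays), stirred Spinner flasks (3 arrays) or rotating Synthecon vessels (8 arrays). Sorting took cells positive for c-kit and for Sca-1, the surface pair that marks LKS cells. Native LKS cells were sorted on the same pair, after lineage-positive cells had been removed, from bone marrow (BM) of mice aged 10 weeks (3 arrays) and from fetal liver (FL) at embryonic day 15 (3 arrays). Undifferentiated ESCs at day 0 of differentiation were read on 3 arrays, and they had been expanded on inactivated mouse embryonic fibroblasts. All 6 groups share the strain background 129X1/SvJ x 129S1. R1 is a single ESC line, and the sort defines the cells by 2 surface proteins only.

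Angiopoietins bind the receptor tyrosine kinase Tek, which pairs with its relative Tie1, and VEGF ligands bind the kinases Flt1, Kdr and Flt4. Cdh5 (VE-cadherin) and Pecam1 join neighbouring endothelial cells, and Eng (endoglin) presents ligands of the TGF-beta family to signalling receptors. In the mouse embryo blood stem cells arise from endothelial cells, and Tek, Pecam1 and Eng are also known on blood stem cells.

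Transcription factors of the ETS and GATA families bind regulatory DNA of many endothelial and blood genes, so the 250 bases before 1 transcript start of each gene, as the promoter table places it, were read for the ETS core AGGAAG and the GATA core AGATAA on both strands. RefSeq promoters (GRCm38.p6) were on hand for 6 of the 8 genes, all but Cdh5 and Pecam1. The ETS core lay in the window of 3 of these 6 genes, with 1 match for Tie1, 2 for Flt1 and 2 for Eng, beside 29.5% of 32851 windows in all. The windows of Tek, Kdr and Flt4 held no such match. The windows of Tek, Kdr and Flt1 lie partly or wholly within the annotated span of the gene, which reaches further upstream, and both Flt1 matches lie inside that span. The GATA core was found in none of the 6, beside 9.99% of all windows. The 3 genes with a match are shown because their levels differed between the groups in different directions, as given further on. Capitals mark AGGAAG or its reverse complement, and the sequences run 5′ to 3′ on the strand of the gene.
Tie1, 250 bases before the start, chr4:118489850-118490099, minus strand: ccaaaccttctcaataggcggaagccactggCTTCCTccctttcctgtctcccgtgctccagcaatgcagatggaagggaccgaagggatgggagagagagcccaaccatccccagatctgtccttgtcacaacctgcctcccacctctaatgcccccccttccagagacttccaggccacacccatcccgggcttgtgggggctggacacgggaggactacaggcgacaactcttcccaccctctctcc
Eng, 250 bases before the start, chr2:32646345-32646594, plus strand: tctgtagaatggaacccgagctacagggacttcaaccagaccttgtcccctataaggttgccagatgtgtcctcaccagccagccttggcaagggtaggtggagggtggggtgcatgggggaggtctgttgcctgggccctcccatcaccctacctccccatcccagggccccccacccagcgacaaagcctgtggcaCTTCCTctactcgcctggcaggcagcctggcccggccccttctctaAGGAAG
Flt1, first match, chr5:147726123-147726152, minus strand: cgcccctccgggAGGAAGaagagggtaggt
Flt1, second match, chr5:147726047-147726076, minus strand: aggtgccggggtAGGAAGtgggctggggaa
In Tie1 the match lay on the opposite strand, beginning 219 bases before the start. In Eng the nearer match lay 6 bases before the start, and the other, on the opposite strand, 52 bases before it. A match of letters is a description of the window and not evidence that a factor binds there.

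The values are log2 expression as the authors normalized it. They run from 4.9 to 15.09 with a median of 6.40, and 9785 to 11204 probes per array stood above background, meaning a detection p under 0.01. Over 7170 bright probes, Synthecon replicates 3, 5 and 7, and likewise 4, 6 and 8, differed from each other by a median of 0.0794 to 0.0922, against 0.103 to 0.445 for replicate pairs of the other groups. Replicates 1 and 2, on another slide, differed from the odd-numbered and the even-numbered arrays by 0.234 to 0.252 and by 0.231 to 0.247, and from the other set by 0.282 to 0.307. The odd-numbered and the even-numbered arrays were averaged into 1 sample each, so Synthecon counts as 2 samples and the fit held 17. The methods speak of 3 biological replicates per group, and which of the 8 arrays repeat a culture is not given in the sources used here, so the choice bears on every test of dynamic culture. With all 8 arrays as samples, 5 of the 8 genes passed in Static against dynamic culture and 4 in Static against native cells, where the fit used here gives 4 and 3. Nothing beyond the words of the methods tells whether replicates came from separate cultures or animals, so each p-value rests only on the spread of these samples. The fit shares 1 estimate of that spread over all 6 groups, so a p-value for Static does not measure the spread within Static alone. Tek, for one, had an SD of 1.64 in Static, against 0.0189 to 0.513 in the other groups. Ly6a, the gene of Sca-1, was above background on all 23 arrays, whereas no probe was found for Kit. Static replicate 1 stood apart from the other Static replicates. Its 11 pluripotency markers averaged 11.66, against 8.84 and 7.98 in Static replicates 2 and 3 and 11.33 to 11.69 in undifferentiated ESCs. The Spinner and Synthecon arrays were as high as undifferentiated ESCs for this list, at 11.96 to 12.11 and 11.69 to 12.32. The 14 pan-leukocyte markers averaged 6.74 in Static replicate 1, against 9.35 and 9.10 in replicates 2 and 3.

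Of the 8 genes, Eng was above background on 23 arrays, Tek on 22, Pecam1 on 21 by its brighter probe, Flt1 on 19, Tie1 on 5 and Cdh5 on 2. Kdr and Flt4 were above background on none. A moderated F test over the 6 groups in limma called 6 of the 8 genes, all but Kdr and Flt4, beside 45.9% of all genes. In native cells the genes that stood above background throughout were Eng and Pecam1. Tek and Flt1 were above background on every array of Static, Spinner, Synthecon and undifferentiated cells. Among native arrays Tek was below background on FL replicate 3 only, and Flt1 on BM replicate 1 and all FL arrays.

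**Figure D1:**
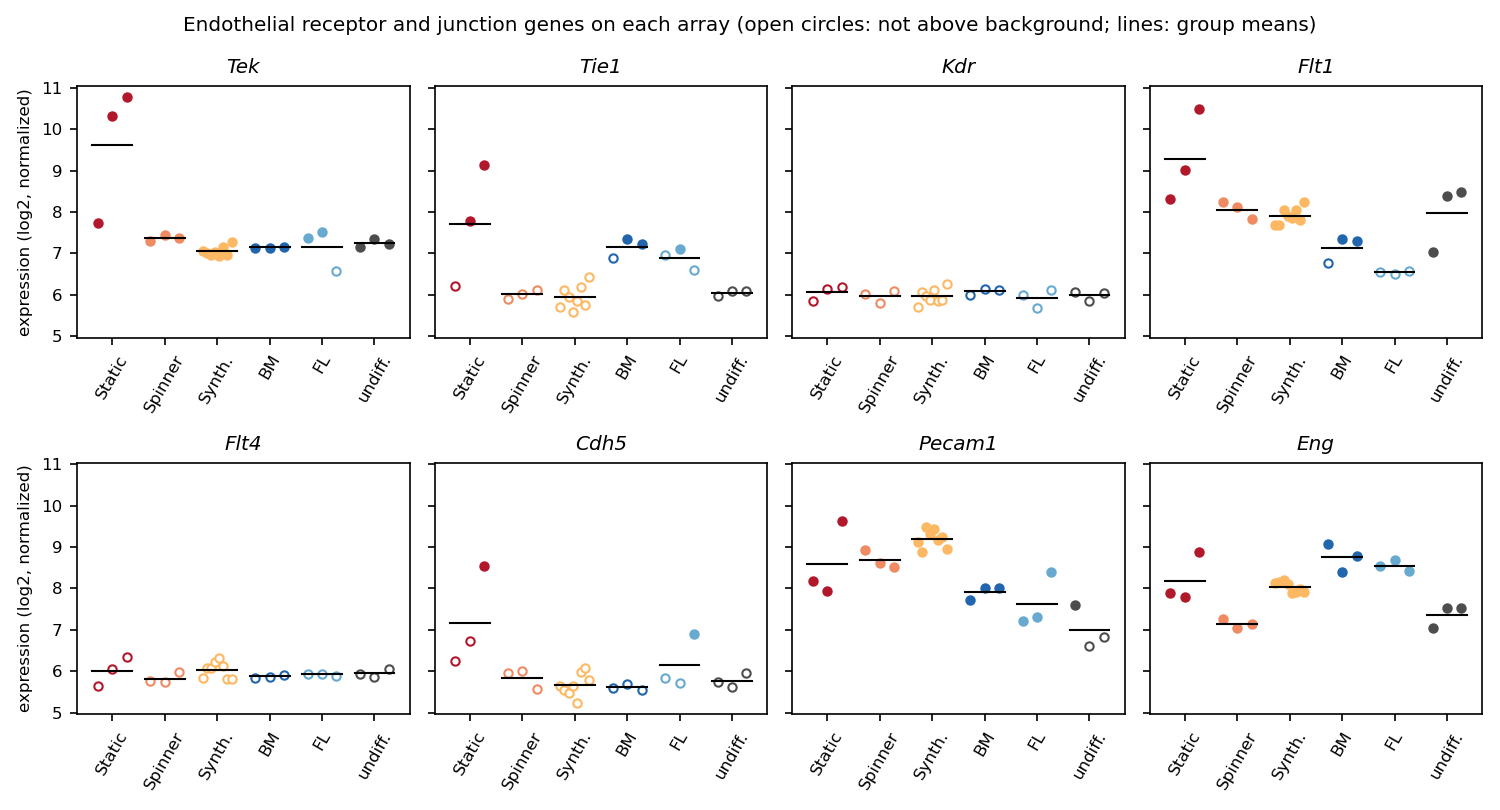
Normalized log2 expression of the 8 genes (brightest probe) on each of the 23 arrays, by group; filled circles are above background, open circles are not, and lines are group means. Tek, Tie1, Flt1 and Cdh5 have their highest arrays in Static replicate 3, while Kdr and Flt4 lie between 5.64 and 6.34 on every array.

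Tek (chr4:94739086-94874976) was higher in Static cells than in any other group. It stood at 7.73, 10.32 and 10.77 in Static replicates 1, 2 and 3. In Spinner cells it was 7.31, 7.44 and 7.37, and over the Synthecon arrays it ran from 6.93 to 7.28 with a median of 7.02. All 3 Static arrays lay above all 11 of dynamic culture, the name used here for Spinner and Synthecon together, but Static replicate 1 did so by a small margin. BM cells had 7.14, 7.13 and 7.16, FL cells 7.38, 7.52 and 6.57, and undifferentiated ESCs 7.15, 7.35 and 7.23. These 3 groups overlapped each other and dynamic culture. In limma, Tek was 5.27-fold higher in Static cells than in dynamic culture (log2 fold change 2.40, SE 0.467, adjusted p = 0.00317). Against native cells (BM and FL, weighted equally) it was 5.49-fold higher in Static (2.46, SE 0.449, adjusted p = 0.00063), and against undifferentiated ESCs 5.16-fold higher (2.37, adjusted p = 0.00739). Without Static replicate 1 these differences were 3.33, 3.39 and 3.30, and without Static replicate 3 they were 1.82, 1.88 and 1.79, and all of them passed. In dynamic culture it differed from native cells by 0.06, with an interval of -0.77 to 0.89 (adjusted p = 0.928). RNA was taken from pools of sorted cells, so fewer cells that carry a transcript and less of it per cell cannot be told apart here.

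Tie1 (chr4:118471191-118489849), the orphan receptor that partners Tek, was low in dynamic culture and in undifferentiated ESCs and higher in native cells and in part of the Static samples. It was 6.22, 7.78 and 9.13 in Static replicates 1, 2 and 3. Spinner cells had 5.89, 6.01 and 6.12, and the Synthecon arrays ran from 5.58 to 6.43 with a median of 5.90, none of them above background. Static replicate 1 lay among the dynamic arrays, and the other Static replicates lay above them. In BM cells Tie1 was 6.88, 7.35 and 7.22, in FL cells 6.95, 7.11 and 6.60, and in undifferentiated ESCs 5.97, 6.09 and 6.09. All native arrays lay above all dynamic arrays. Static replicate 1, BM replicate 1, FL replicates 1 and 3 and all undifferentiated arrays were below background. Tie1 was at least 1.94-fold higher in Static cells than in dynamic culture (log2 fold change 1.74, SE 0.409, adjusted p = 0.00998). This difference was 2.48 without Static replicate 1, 1.02 without replicate 3 (adjusted p = 0.0423) and 1.70 without replicate 2 (adjusted p = 0.0501). It was at least 1.86-fold higher in Static cells than in undifferentiated ESCs (adjusted p = 0.0246), a call lost without Static replicate 2 or 3 or undifferentiated replicate 1 or 3 (adjusted p = 0.0679 to 0.0884). In dynamic culture Tie1 was at least 1.20-fold lower than in native cells (log2 fold change -1.04, SE 0.341, adjusted p = 0.0235). For these bounds the values below background were raised to the lowest level that counts as above it. Static and native cells differed by a fitted 0.69, an amount that did not pass the test (adjusted p = 0.226). Without Static replicate 1 this difference was 1.44 (adjusted p = 0.000639), and without Static replicate 3 it was -0.02 (adjusted p = 0.971). The call of dynamic culture against native cells was lost without FL replicate 2 or without either Synthecon set (adjusted p = 0.0507 to 0.087). Of the pairs behind that call, Spinner or Synthecon against BM or FL, none passed on its own (adjusted p = 0.0735 to 0.205).

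Flt1 (chr5:147561604-147726438), the VEGF receptor that acts largely as a trap for its ligand, was the one VEGF receptor read above background. It stood at 8.32, 9.01 and 10.48 in Static cells. Spinner cells had 8.23, 8.11 and 7.82, and the Synthecon arrays ran from 7.67 to 8.23 with a median of 7.87. Static lay above dynamic culture on every array, narrowly for replicate 1. BM cells had 6.77, 7.34 and 7.30, and FL cells 6.56, 6.5 and 6.58, none of the FL arrays above background. Undifferentiated ESCs had 7.04, 8.38 and 8.49. So the native arrays lay below every ESC-derived array, and undifferentiated ESCs spread over both levels. Flt1 was 5.37-fold higher in Static than in native cells (log2 fold change 2.43, SE 0.376, adjusted p = 0.000142) and 2.20-fold higher in dynamic culture than in native cells (1.14, SE 0.325, adjusted p = 0.011). Without Static replicate 3 the difference between Static and native cells was 1.82 (adjusted p = 0.000617). Of the pairs behind the value for dynamic culture, Spinner against FL passed (adjusted p = 0.0168, beside 14.7% of all genes called higher), and Spinner against BM and Synthecon against BM or FL did not (adjusted p = 0.0508 to 0.274). It was 2.44-fold higher in Static than in dynamic culture (1.29, SE 0.391, adjusted p = 0.0372). Neither Static against Spinner (1.21, adjusted p = 0.0878) nor Static against Synthecon passed on its own. With Spinner replicates 1 and 2 averaged, the call against dynamic culture was lost. Dynamic culture differed from undifferentiated ESCs by 0.01, with an interval of -0.82 to 0.84 (adjusted p = 0.995), and FL cells were at least 2.05-fold lower than undifferentiated ESCs (adjusted p = 0.0238, beside 14.2% of all genes called lower there). The second Flt1 probe was above background on no array and its difference between Static and dynamic culture was -0.07, so the Static rise rests on 1 probe. That call was also lost without Static replicate 2 or 3, any 1 of the Spinner replicates or either Synthecon set (adjusted p = 0.0554 to 0.223), and without Static replicate 3 the difference was 0.68.

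Kdr (chr5:75932827-75979072), the main signalling receptor for VEGF in endothelium and an early marker of the mesoderm that yields blood and vessels, was not above background on any array. Its values ran from 5.68 to 6.25, with group means of 6.06 in Static, 5.96 in Spinner, 5.96 in Synthecon, 6.08 in BM, 5.93 in FL and 5.99 in undifferentiated cells. Flt4 (chr11:49609679-49652739), the receptor of VEGF-C known from lymphatic vessels, was likewise below background with both probes. No fold is given for either gene, since neither group of any comparison was measured. Each is read here as not detected by its probe, and where on the transcript the probes lie was not analysed.

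Cdh5 (chr8:104101613-104144504), the cadherin that holds endothelial cells together at their junctions, was above background on 2 arrays, Static replicate 3 and FL replicate 3. It was 6.24, 6.73 and 8.55 in Static cells. In Spinner cells it was 5.96, 6.00 and 5.58, and in Synthecon cells 5.24 to 6.09 with a median of 5.64. The Static arrays all lay above the dynamic ones, 2 of them without reaching the level that counts as above background. BM cells had 5.59, 5.69 and 5.55, FL cells 5.84, 5.72 and 6.90, and undifferentiated ESCs 5.74, 5.62 and 5.95. FL replicate 3 was the only native array to overlap Static. Cdh5 was at least 1.34-fold higher in Static than in dynamic culture (fitted log2 fold change 1.41, SE 0.378, adjusted p = 0.02). Static also passed as higher than native cells (adjusted p = 0.0143), but with 1 of 3 Static and 1 of 6 native arrays above background the size of that difference is not given. Taken by pairs, Static passed against Synthecon and BM, and did not pass against Spinner or FL (adjusted p = 0.102 for FL). Cdh5 was at least 1.29-fold higher in Static than in undifferentiated ESCs (adjusted p = 0.0376). Without Static replicate 3 no Static array was above background, and neither the comparison with dynamic culture (adjusted p = 0.0835) nor that with native cells passed (adjusted p = 0.0853). The call against dynamic culture was also lost without either Synthecon set (adjusted p = 0.0629 and 0.05), and that against undifferentiated ESCs without any 1 of the undifferentiated replicates, Spinner replicate 1, BM replicate 3, either Synthecon set or Static replicate 3 (adjusted p = 0.0505 to 0.131).

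Pecam1 (chr11:106654213-106715281), an adhesion molecule of endothelium that platelets, leukocytes and mouse ESCs also carry, followed another order: its group means were highest in dynamic culture and lowest in undifferentiated ESCs by both probes. By its brighter probe it was 8.19, 7.94 and 9.62 in Static cells. Spinner cells had 8.94, 8.60 and 8.51, and the Synthecon arrays ran from 8.88 to 9.48 with a median of 9.22. Static replicates 1 and 2 lay below every dynamic array and replicate 3 above them all by this probe. BM cells had 7.71, 8.00 and 8.02, FL cells 7.21, 7.32 and 8.39, and undifferentiated ESCs 7.60, 6.60 and 6.82. By this probe all dynamic arrays lay above all native and all undifferentiated ones. Pecam1 was 2.25-fold higher in dynamic culture than in native cells (log2 fold change 1.17, SE 0.295, adjusted p = 0.00464) and 3.83-fold higher than in undifferentiated ESCs (1.94, SE 0.354, adjusted p = 0.00241). Against BM and FL, Synthecon passed on its own (adjusted p = 0.0365 and 0.0142, beside 17.1% and 15.3% of all genes called higher), and Spinner did not (adjusted p = 0.17 and 0.062). Static cells were 2.98-fold higher than undifferentiated ESCs (1.58, SE 0.393, adjusted p = 0.0154), a call lost without Static replicate 3 or without undifferentiated replicate 2 or 3 (adjusted p = 0.0524 to 0.0725). Static and dynamic culture differed by -0.36, with an interval of -1.11 to 0.39 (adjusted p = 0.609). The second Pecam1 probe, above background on 23 arrays, also passed in these 3 comparisons, with 0.76 for dynamic culture against native cells (adjusted p = 0.00248), 1.38 for dynamic culture against undifferentiated ESCs (adjusted p = 0.000682) and 1.12 for Static against undifferentiated ESCs (adjusted p = 0.00575). By that probe the Static arrays were 8.16, 8.17 and 8.39, within the 8.12 to 8.86 of the dynamic arrays, FL replicate 3 overlapped dynamic culture at 8.16, and Spinner averaged 8.53 and Synthecon 8.48.

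Eng (chr2:32646595-32682669), the co-receptor of the TGF-beta family, was highest in native cells. It stood at 7.89, 7.80 and 8.87 in Static cells. In Spinner cells it was 7.27, 7.04 and 7.15, and in Synthecon cells 7.90 to 8.21 with a median of 8.05. Static and Synthecon cells overlapped, and Spinner cells lay below both. BM cells had 9.06, 8.40 and 8.79, FL cells 8.53, 8.69 and 8.43, and undifferentiated ESCs 7.04, 7.53 and 7.52. All native arrays lay above all dynamic and undifferentiated ones. In dynamic culture Eng was at 0.481 times its native level (log2 fold change -1.06, SE 0.19, adjusted p = 0.00031). That call rests on Spinner, which passed against BM (-1.60, adjusted p = 0.000149) and FL (-1.40, adjusted p = 0.000607), beside 14.0% and 12.8% of all genes called lower, whereas Synthecon passed against neither (-0.71, adjusted p = 0.0727, and -0.51, adjusted p = 0.219). BM cells were 2.61-fold above undifferentiated ESCs (adjusted p = 0.000579) and FL cells 2.28-fold (adjusted p = 0.00244), beside 13.9% and 13.1% of all genes called higher there. Static cells were 1.77-fold above undifferentiated ESCs (0.83, adjusted p = 0.0427), a call lost without any 1 of the undifferentiated or Spinner replicates, FL replicate 1 or 2, BM replicate 3, either Synthecon set or Static replicate 3 (adjusted p = 0.0517 to 0.19). They were 2.05-fold above Spinner cells (1.04, SE 0.254, adjusted p = 0.0175, beside 5.88% of all genes called higher). Spinner cells differed from Synthecon cells by -0.89 without overlap of arrays, with an interval of -1.49 to -0.29 before adjustment, but this did not pass the test over all probes (adjusted p = 0.109, beside 2.16% of all genes called lower). Static and native cells differed by -0.46 (adjusted p = 0.143), and without Static replicate 3 by -0.80 (adjusted p = 0.00506).

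**Figure D2:**
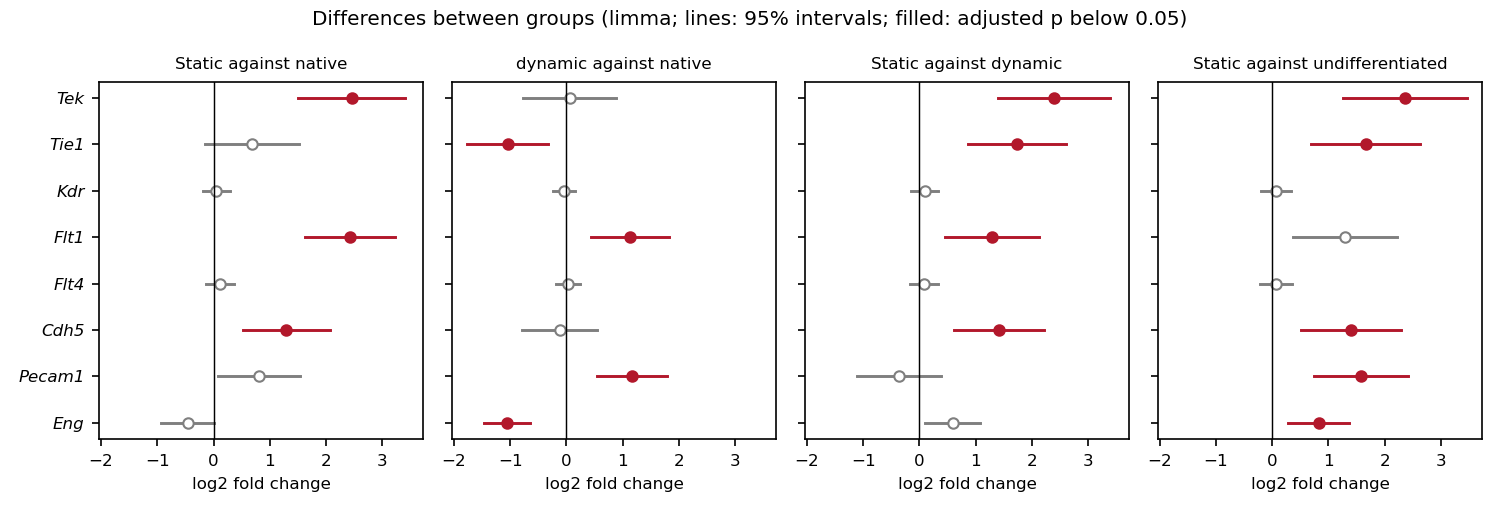
Log2 fold changes of the 8 genes in 4 comparisons, with 95% intervals from limma; red filled points have an adjusted p under 0.05. Tek lies between 2.37 and 2.46 in the 3 comparisons of Static cells and at 0.06 in dynamic culture against native cells, whereas Eng lies at -1.06 there.

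Ordered by group means, Static came first for Tek, Tie1, Flt1 and Cdh5, Synthecon for Pecam1 by its brighter probe and BM for Eng. Of all neighbours in these orders, only Tek in Static over Spinner passed the test in limma (2.23, adjusted p = 0.0137). Against dynamic culture, Static cells had 4 of the 8 genes higher (Tek, Tie1, Flt1 and Cdh5) and none lower, beside 7.20% of all genes called higher and 8.49% lower, with a median difference of 0.94 against -0.02 over all genes. This count was 5 without Static replicate 1, and 2 without Static replicate 2, without Static replicate 3 or without either Synthecon set. It was 1 (Tek) in a fit of the compared groups alone and 0 with either of the methods' tests. Against native cells, Static had 3 of 8 higher (Tek, Flt1 and Cdh5) and none lower, beside 14.5% of all genes called higher and 13.8% lower, with a median of 0.75 against -0.03. Without Static replicate 1 it was 5 higher, among them Flt4, which no array measured above background. Without Static replicate 3 it was 2 higher (Tek and Flt1) and 1 lower (Eng), and the methods' test for unequal variances called 0. Dynamic culture had 2 higher (Flt1 and Pecam1) and 2 lower (Tie1 and Eng) than native cells, beside 21.0% and 18.1% of all genes. These comparisons share the native samples.

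Against undifferentiated ESCs, Static cells had 5 of 8 genes higher (Tek, Tie1, Cdh5, Pecam1 and Eng), beside 7.28% of all genes called higher and 7.19% lower, with a median of 1.35 against -0.01. The count was 2 without undifferentiated replicate 1 or 2, 1 without undifferentiated replicate 3 or Static replicate 3, and 3 without Spinner replicate 1, BM replicate 3 or either Synthecon set. Dynamic culture had 1 higher (Pecam1), beside 6.71%. Between BM and FL limma called none of the 8, beside 1.45% of all genes in either direction, and none had an unadjusted p under 0.05 or passed either of the methods' tests. The widest difference there was Flt1, at 0.59 higher in BM with an interval of -0.33 to 1.51.

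BeadChip slides, which the array names give, allow 2 comparisons of Static with dynamic culture within a slide. On slide 1, Static replicates 1 and 2 exceeded Spinner replicates 1 and 2 by 1.65 for Tek, 1.05 for Tie1 and 0.49 for Flt1, with Tie1 above background on 1 of these 4 arrays. Cdh5 was below background on every array of slide 1, so no difference is given for it there. On slide 3, Static replicate 3 exceeded 6 Synthecon arrays by 3.71 for Tek, 3.18 for Tie1, 2.85 for Cdh5 and 2.50 for Flt1. On that slide no Synthecon array measured Tie1 or Cdh5 above background, so 3.18 and 2.85 are differences of normalized values and not sized changes. With slide as a block the fitted differences were 2.49, 1.92, 1.47 and 1.41, and all 4 passed the test. In that fit each Synthecon set was split by slide, so near repeats counted as more samples than in the main fit. Its p-values are therefore not on the same footing as those given above. For Pecam1 the within-slide differences were -0.70 on slide 1 and 0.35 on slide 3, with opposite signs. Against the BM array on slide 1, the 2 Static arrays differed by 1.89 for Tek, and against the undifferentiated arrays by 1.79 for Tek, 0.95 for Tie1 and 0.48 for Eng. On slide 2, Spinner and Synthecon arrays differed from BM and FL arrays by 0.50 to 1.36 for Pecam1 and 0.36 to 1.27 for Flt1, and by -1.45 to -0.41 for Eng and -1.38 to -0.77 for Tie1. On that slide Tie1 was below background on the dynamic arrays and Flt1 on the FL arrays. All FL arrays lay on slide 2 and all undifferentiated ones on slide 1.

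The ligands of these receptors were read from a list of 8 genes, of which 5 were higher in Static than in native cells and none lower, with a median of 1.02 against -0.03 over all genes. Against dynamic culture 2 were higher in Static, Angpt2 and Pgf, or 3 without Static replicate 1. Beside the counts of this list and of those below, 14.5% of all genes were called higher and 13.8% lower in Static against native cells. The shares were 7.20% and 8.49% in Static against dynamic culture, and 21.0% and 18.1% in dynamic culture against native cells. Angpt2, the angiopoietin that modulates Tek, was 9.44, 9.94 and 10.58 in Static replicates 1, 2 and 3, so that here replicate 1 was also far above the other groups. Its means were 9.99 ± 0.57 in Static, 6.55 in Spinner, 6.58 in Synthecon, 5.91 in BM, 6.15 in FL and 6.75 in undifferentiated cells (SD, n = 3 for Static). It was 3.42 higher on the log2 scale in Static than in dynamic culture (adjusted p = 6.11e-07) and at least 8.25-fold higher than in native cells (adjusted p = 4.34e-09). Angpt1, the angiopoietin that activates Tek, had its highest means in native cells. It averaged 7.03 in Static, 6.01 in Spinner, 5.92 in Synthecon, 8.18 in BM and 7.65 in FL, and was at least 2.24-fold lower in dynamic culture than in native cells (adjusted p = 7.82e-05). Static against native cells did not pass for Angpt1 (-0.89, adjusted p = 0.076).

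VEGF ligands were above background on all 23 arrays for Vegfa, Vegfb and Vegfc. Against native cells, Static cells were higher by 1.32 for Vegfa (adjusted p = 0.00208), which binds Flt1 and Kdr. They were higher by 1.10 for Vegfb (adjusted p = 0.000984), a ligand of Flt1, and by 2.56 for Vegfc (adjusted p = 5.54e-05), a ligand of Flt4. Dynamic culture was higher than native cells as well for Vegfb (1.08, adjusted p = 0.000185) and Vegfc (1.64, adjusted p = 0.000514). For none of these 3 did Static pass against dynamic culture, where the differences were 0.74, 0.02 and 0.93. Pgf, another ligand of Flt1, was above background on 1 array and is given as at least 1.01-fold higher in Static than in dynamic culture (adjusted p = 8.47e-05).

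**Figure D3:**
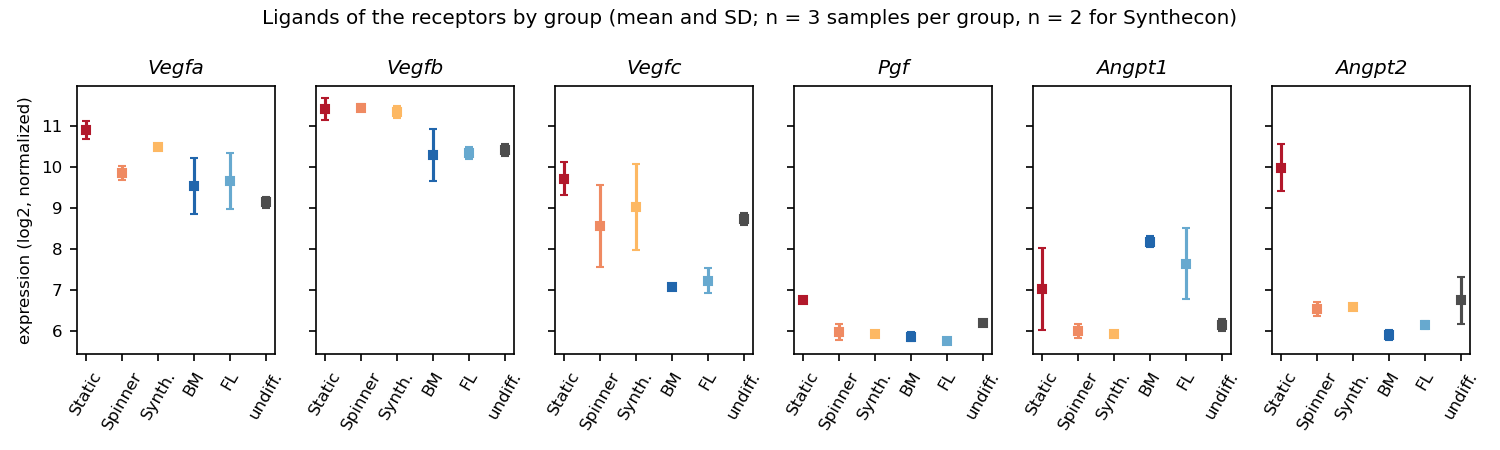
Normalized log2 expression of 6 ligands by group, as mean and SD (n = 3 samples per group, n = 2 for Synthecon). Angpt2 stands at 9.99 in Static and below 7 in the other groups, and Angpt1 is highest in BM and FL.

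Among 8 co-receptors and phosphatases, Static cells had 2 higher than dynamic culture and 4 higher than native cells, with none lower and medians of 0.44 and 0.44. The count against dynamic culture was 4 without Static replicate 1. Nrp1, the neuropilin that binds VEGF beside its kinases, was 10.55, 13.32 and 12.67 in Static cells and averaged 6.92 in Spinner, 7.02 in Synthecon, 8.31 in BM, 8.18 in FL and 8.56 in undifferentiated cells. It was 5.21 higher in Static than in dynamic culture (adjusted p = 0.000237) and 3.93 higher than in native cells (adjusted p = 0.000347). Unc5b, a guidance receptor of vessels, was 1.75 higher in Static than in dynamic culture (adjusted p = 0.000366). Ptprb, the phosphatase that acts on Tek and Cdh5, was at least 1.81-fold higher in Static than in native cells (adjusted p = 0.000269).

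Of 12 ligands and partner receptors of Eng, Static cells had 5 higher than dynamic culture and 6 higher than native cells, with none lower and medians of 0.39 and 0.37. Tgfb1 and Tgfb2, both TGF-beta ligands, were 2.73 (adjusted p = 3.8e-05) and 2.69 (adjusted p = 0.000189) higher in Static than in dynamic culture. The type II receptor Tgfbr2 was 2.88 higher (adjusted p = 0.00607). Static and native cells differed in Tgfb1 by -0.48 (adjusted p = 0.241) and in Tgfbr2 by -0.02 (adjusted p = 0.99). Acvrl1, the receptor with which Eng acts in endothelium, was above background on no array.

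Of 17 genes of the VE-cadherin complex and endothelial junction, Static cells had 4 higher than dynamic culture and 9 higher than native cells, with none lower and medians of 0.09 and 0.73. Dynamic culture itself had 8 of them higher and 2 lower than native cells. Cldn5, the claudin of endothelial tight junctions, was 7.6, 9.5 and 11.09 in Static cells and averaged 8.09 in Spinner, 6.27 in Synthecon and 5.66 in BM. It was 2.21 higher in Static than in dynamic culture (adjusted p = 0.00717) and at least 5.49-fold higher than in native cells (adjusted p = 2.96e-05). Icam2, an adhesion molecule of endothelium and leukocytes, was at least 3.46-fold higher in Static than in dynamic culture (adjusted p = 0.00195) and at least 7.31-fold lower in dynamic culture than in native cells (adjusted p = 1.45e-06). The catenins that bind cadherins in all epithelia, Ctnna1 and Ctnnb1, differed between Static and dynamic culture by 0.01 and -0.11 and did not pass. The count of 4 was 6, with 1 lower, without Static replicate 1, and 2 without Static replicate 2 or 3.

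Of 18 genes that relay the receptors' signals, Static cells had 4 higher than dynamic culture and none lower, with a median of 0.25, or 8 without Static replicate 1, 1 without replicate 2 and 2 without replicate 3. Against native cells 2 were higher and 4 lower in Static (5 higher without Static replicate 1), and 3 higher and 7 lower in dynamic culture. The shares of all genes were 14.5% and 13.8% in Static and 21.0% and 18.1% in dynamic culture, and neither count of higher genes exceeded its share. Those lower in Static included Ptpn6, a phosphatase of blood cells (-1.59, adjusted p = 0.000631), and Prkcb, a protein kinase C (-2.59, adjusted p = 0.00084). The 4 included Rasip1, a Ras-interacting protein needed for vessel lumens in mouse (1.41, adjusted p = 0.00534), and the kinase Src (0.64, adjusted p = 0.024). Of 23 transcription factors of endothelium and blood, Static cells had 11 higher than dynamic culture and none lower, with a median of 0.98, or 6 without Static replicate 2 and 5 without replicate 3. Against native cells 10 were higher and 6 lower in Static (3 lower without Static replicate 1), and 6 higher and 10 lower in dynamic culture. Lmo2, a partner of Tal1 in blood formation, was 8.06, 12.24 and 12.20 in Static cells, 3.52 higher than in dynamic culture (adjusted p = 0.0047). It averaged 13.48 in BM and 13.05 in FL, above the Static mean of 10.83. Erg, an ETS factor of endothelium, was above background on no array.

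Marker lists also differed between the Static replicates, and their part in the result was not tested. Of these lists only the endothelial one rose from replicate 1 to 2 to 3, as Tek, Tie1, Flt1 and Cdh5 did. The 11 pluripotency markers fell in that order, averaging 11.66, 8.84 and 7.98. So did the 8 nascent mesoderm markers, averaging 7.56, 7.37 and 7.05. Static replicates 1 and 2 lay on slide 1 and replicate 3 on slide 3. The 10 trophoblast markers averaged 7.30, 7.03 and 7.16. The 27 endothelial markers averaged 7.06, 7.64 and 8.23 in Static replicates 1, 2 and 3, with 11, 16 and 20 above background. In the other groups the same list ran from 6.64 to 7.05 with 8 to 11 above background. Static replicate 3, highest for Tek, Tie1, Flt1 and Cdh5, was highest for this list and for the 9 visceral endoderm markers, which averaged 8.21, 7.72 and 8.84 in Static replicates 1, 2 and 3, against 6.78 to 7.99 in dynamic culture. The 14 pan-leukocyte markers had 4, 11 and 11 above background in Static replicates 1, 2 and 3, against 3 to 5 on the dynamic arrays and 12 or 13 on the native ones. The 9 megakaryocyte and platelet markers averaged 6.25, 9.34 and 8.57 in Static cells, against 5.93 to 6.17 in dynamic culture and 8.00 to 9.20 in native cells. The 10 fibroblast and smooth muscle markers averaged 7.60, 9.37 and 8.41 in Static cells, against 6.44 to 7.06 in dynamic culture and 7.08 to 8.54 in undifferentiated ESCs. The 7 primitive erythroid markers averaged 8.06, 11.72 and 10.43 in Static cells, against 5.86 to 6.95 in dynamic culture, and the 11 monocyte and macrophage markers 6.22, 8.91 and 8.48, against 5.98 to 6.26.

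**Figure D4:**
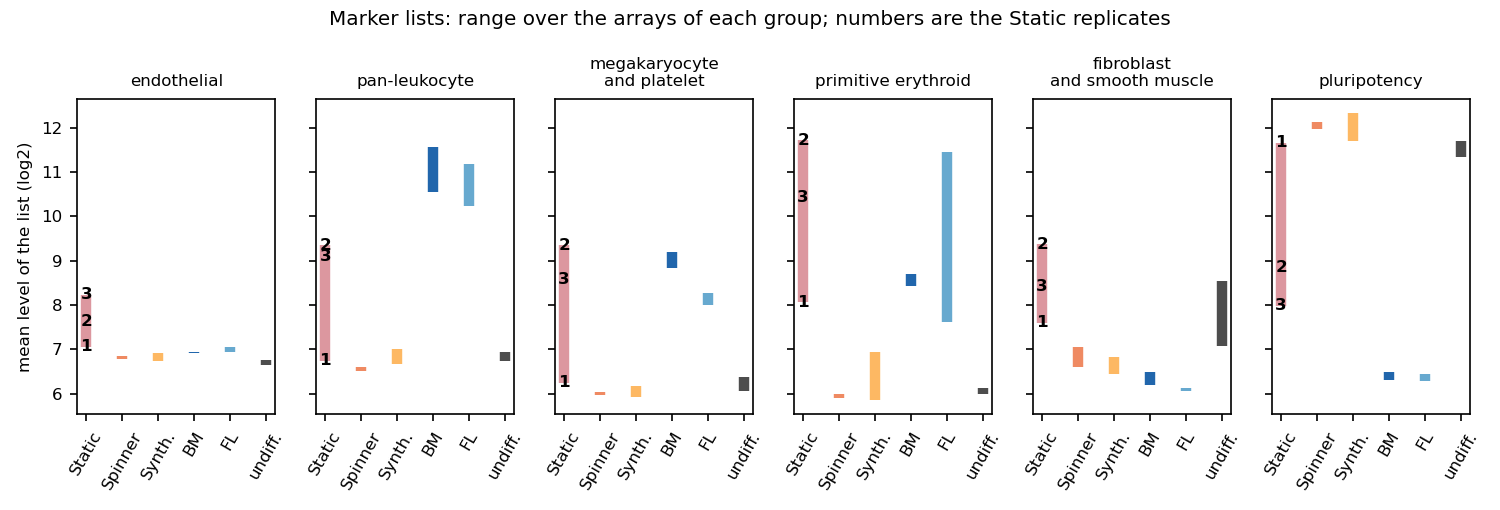
Mean log2 level of 6 marker lists, drawn as the range over the arrays of each group; the numbers 1, 2 and 3 are the Static replicates. Static replicate 3 is highest for the endothelial list at 8.23, and replicate 2 for the pan-leukocyte list at 9.35.

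Counted over single genes, 9 of the 27 endothelial markers passed as higher in Static cells against dynamic culture and none as lower, with a median of 0.48 against -0.02 over all genes. The count was 14 without Static replicate 1, 8 without replicate 2 and 7, with 1 lower, without replicate 3. Against native cells 10 were higher and 3 lower in Static (16 higher without Static replicate 1), and 7 higher and 7 lower in dynamic culture. The shares of all genes were 14.5% and 13.8% in Static and 21.0% and 18.1% in dynamic culture, where the counts lay near their shares. Emcn, a sialomucin of venous and capillary endothelium, was 7.34, 9.92 and 11.50 in Static cells, at least 7.13-fold higher than in dynamic culture (adjusted p = 0.000988). Ramp2, a receptor partner needed for vessel integrity in mouse, was 2.40 higher than in dynamic culture (adjusted p = 0.000154) and 4.25 higher than in native cells (adjusted p = 2.54e-08). Cd93 was at least 4.50-fold higher in Static than in dynamic culture (adjusted p = 0.000848) but 2.27 lower on the log2 scale than in native cells (-2.27, adjusted p = 0.00074). The defining markers S1pr1, Dll4 and Clec14a were above background on no array.

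Across the 17 samples of the fit, the members fell into like and unlike pairs. Tek had a Pearson r of 0.764 with Tie1, 0.771 with Cdh5 and 0.757 with Flt1, whereas Flt1 and Eng had -0.200 and Pecam1 and Eng 0.041. Among 13379 probes of other genes, the pattern most like that of Tie1 was Emcn (r = 0.956), most like Cdh5 was Stab1 (0.936), a scavenger receptor of sinusoidal endothelium and macrophages, and most like Eng was Mknk2 (0.927), a kinase of the translation machinery. For Tek it was Asb12 (0.942), for Flt1 Tnnc1 (0.930), a troponin of heart muscle, and for Pecam1 Arhgef2 (0.938). These values describe samples that share groups, slides and 1 normalization. Emcn averaged 9.59 in Static, 5.69 in Spinner, 5.89 in Synthecon, 7.84 in BM, 8.23 in FL and 5.63 in undifferentiated cells.

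**Figure D5:**
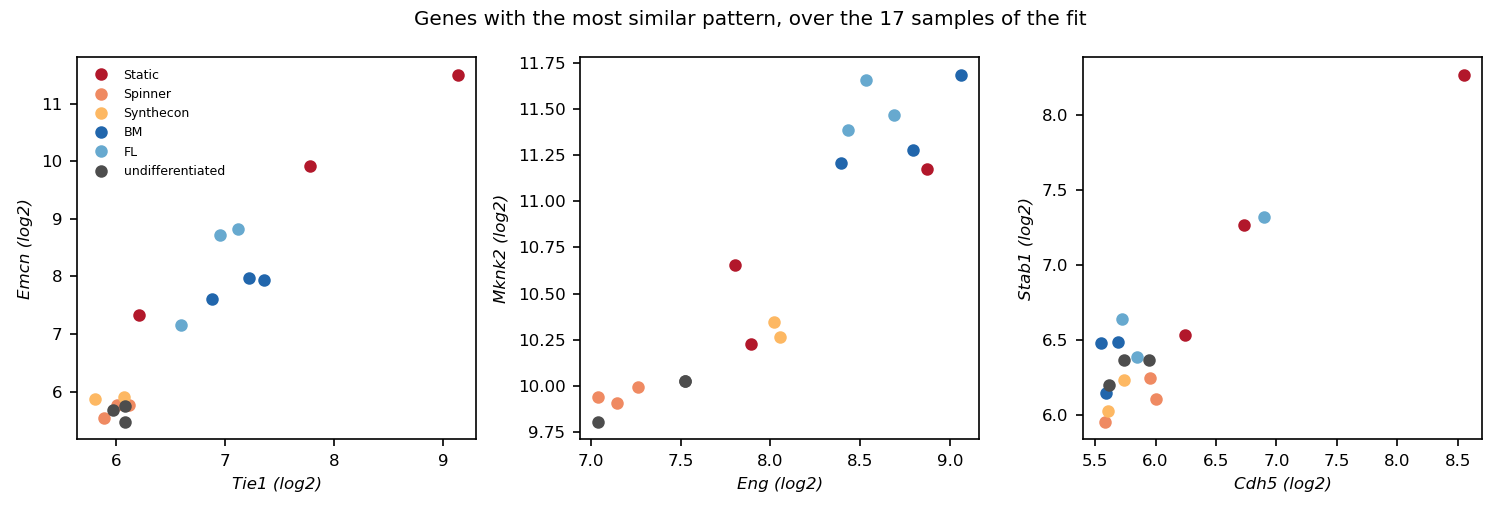
Log2 levels of 3 genes against the gene with the most similar pattern, over the 17 samples of the fit, coloured by group. Tie1 and Emcn are low together in Spinner, Synthecon and undifferentiated cells, Eng and Mknk2 are high together in BM and FL, and Cdh5 and Stab1 are set apart by 1 Static sample at 8.55.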

How the data were processed

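Total RNA was labelled and hybridized to Illumina MouseRef-8 v2 BeadChips, which were read with BeadStudio. Background subtraction, quantile normalization between arrays and log2 transformation were done by the authors, whose deposited log2 values were used with no further scaling. The bead intensities deposited beside them had been background-subtracted but not normalized between arrays, and served for alternatives. The deposited detection p-values compare each probe with negative control beads, and a p under 0.01 counts as above background. A deposited table of the authors' own means, ratios and test results was not used, nor were a rounded copy of the log2 values and a second copy of the detection p-values in which some cells had become clock times. No column of another sample was found (0). The array number limits the precision.

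Groups were fitted in limma 3.58.1 (R 4.3.3) by lmFit and eBayes with a trend, on 17 samples of all 6 groups, with p-values adjusted by Benjamini-Hochberg over all 25697 probes (threshold 0.05). Each Synthecon near-repeat set was averaged to 1 sample. Native is the mean of BM and FL, and dynamic the mean of Spinner and Synthecon. A gene was read from its brightest probe. Where 1 side had no array above background, its values were raised to the lowest value above background on each array and the fold is given as a bound, and where both sides had none, no fold is given. Symbols were updated by transcript for 24202 probes. The genes named are the 8 members, their ligands, up to 4 genes per list with the largest called change in a Static comparison, genes outside that rule whose level bears on a member (such as Ctnna1, Ctnnb1, Acvrl1, Erg and Stab1, chosen after their values were seen), and the gene most correlated with each member. Members and lists were chosen with earlier results of these data known. Promoters and gene positions are those of RefSeq, GRCm38.p6, whereas the build of the probe annotation is not given in the sources used here. The fit was tested on simulated data with the same spread in every group, so groups of unequal spread were not covered by that test. Alternatives covered the near repeats, the methods' t-tests, the groups fitted, normalization, a background floor of 16, a filter on dim probes, averaging of probes, slide, replicate number and each left-out replicate.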

Additional observations from a re-analysis of the deposited data

Results flagged for a closer look

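For 4 of the 8 genes the effect against native cells differed between Static and dynamic culture, by the test of that difference in limma, which equals the comparison of Static with dynamic culture. The difference was 2.40 for Tek (2.46 in Static against 0.06 in dynamic culture), 1.74 for Tie1 (0.69 against -1.04), 1.29 for Flt1 (2.43 against 1.14) and 1.41 for Cdh5, on the log2 scale. Cdh5, and Tie1 in dynamic culture, lay mostly below background, so these sizes are fitted values only. A test for single outlying arrays was run for 11 probes in the Synthecon group, the one group with enough arrays, and marked 0. The Synthecon arrays hold near repeats, and Static could not be tested, so this count tells nothing of the Static replicates.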

How the results depend on the processing

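Of 473 values of 17 member calls under up to 28 alternatives, 388 kept direction and threshold, 85 kept direction without passing and 0 reversed. Flt1, Pecam1 and Eng held in dynamic culture against native cells under all 28. With the methods' t-test for unequal variances, 0 members passed in Static against native, Static against dynamic, Static against undifferentiated and dynamic against undifferentiated. With equal variances, 0 passed in Static against dynamic and against undifferentiated. With only the groups compared in the fit, the counts were 1 and 0 for these, and with the background floor 2 and 3. Static against undifferentiated had 3 with Spinner replicates 1 and 2 averaged and 3 with slide as a block. Leaving out 1 replicate gave 3 to 5, in either direction, for Static against native, 3 to 4 for dynamic against native, 2 to 5 for Static against dynamic, and 1 to 6 for Static against undifferentiated. The replicate block was fitted to replicates 1, 2 and 3 of each group. Synthecon arrays entered it as separate samples, although replicates 1 and 3 belong to 1 near-repeat set, and the other Synthecon arrays were left out. It gave 3, 4, 4, 6, 1 and 0 members for Static and dynamic against native, Static against dynamic, Static and dynamic against undifferentiated, and BM against FL, and 6 over the 6 groups. Deviations of same-numbered samples from their group means, Synthecon left out, had r of -0.13 to 0.25 (30 pairs, 7 over 0.1). Samples with different numbers were not compared, so whether the numbers pair samples was not tested. Kdr, Flt4 and, on most arrays, Tie1 and Cdh5 lie too near background for their differences to be sized.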
